A study of Homo sapiens with 24 samples.

Results

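The genes described here build the peroxisome and carry out its metabolism. They were taken by symbol from the count table of MDA686TU cells, a head and neck cancer cell line, and number 32 of 60617 genes in that table. Of them, 13 are PEX genes, which encode the peroxins that assemble the organelle, and 19 encode its enzymes and membrane proteins. The 4 groups of 6 libraries were the untreated control, EGCG (a catechin of green tea) at 40 µM, resveratrol (a stilbene of grapes) at 15 µM, and the combination of both at these doses, each for 24 h. All cells were of this 1 line and grew in the same medium. Water was the solvent of EGCG and DMSO that of the resveratrol stock, and no source used here says whether the control cells received DMSO, so an effect of resveratrol and one of its solvent cannot be told apart. The labels do not say whether the 6 replicates of a group were separate cultures, so the p-values measure the spread between these libraries. In bulk RNA, fewer cells of a type and less RNA per cell cannot be told apart.

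Peroxisomes are small organelles with a single membrane that oxidize very long and branched fatty acids, make the precursors of ether lipids and break down hydrogen peroxide. Their matrix enzymes are made in the cytosol and carried in by the receptors PEX5 and PEX7, which dock at PEX13 and PEX14. The ring finger proteins PEX2 and PEX10 then mark PEX5 with ubiquitin, and an ATPase that contains PEX6, held at the membrane by PEX26, pulls it out again. Membrane proteins are inserted by PEX19, PEX3 and PEX16, and the PEX11 proteins shape and divide the organelle. The oxidases of the matrix give off hydrogen peroxide, which catalase (CAT) removes. In liver, the nuclear receptor PPARα drives many of these genes.

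Library totals ranged from 7034872 to 11735574 counts. The squamous epithelial identity of the cells could be seen in all 8 markers examined, with KRT5 at 1275 ± 26.5 FPKM and KRT14 at 1654 ± 39.5 FPKM (SD, n = 6) in the control. PTPRC of leukocytes and PECAM1 of endothelium did not exceed 0.0161 FPKM in any library. Of the markers of fibroblasts, DCN did not exceed 0.00959 FPKM and COL1A1 ranged from 10.2 to 20.05 FPKM, and its part in the results was not tested. The share of mitochondrial transcripts was lower in replicates 1 to 3 of every group (0.249% to 0.326% of counts) than in replicates 4 to 6 (0.448% to 0.775%). The labels name no batch, so values within each set of replicates are given for the 8 genes described in full.

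Promoter sequences of 26 of the 32 genes were found in the RefSeq table of GRCh38.p14, as 34 windows of 300 bases (250 before and 50 after an annotated start). Those shown belong to CAT and PXMP4, whose transcripts were among the largest rises with resveratrol, and to PXMP2 and AGPS, which were the largest falls with the combination. Capitals mark each CCAAT box on either strand in the first 3 windows. In the AGPS window, capitals mark the 11 bases that GENCODE places both in AGPS and, on the other strand, in the neighbouring gene NFE2L2. The windows lie at chr11:34438684-34438983 (plus strand), chr20:33720261-33720560 (minus strand), chr12:132687337-132687636 (plus strand) and chr2:177392523-177392822 (plus strand), and all are printed 5′ to 3′ on the strand of the gene.
CAT: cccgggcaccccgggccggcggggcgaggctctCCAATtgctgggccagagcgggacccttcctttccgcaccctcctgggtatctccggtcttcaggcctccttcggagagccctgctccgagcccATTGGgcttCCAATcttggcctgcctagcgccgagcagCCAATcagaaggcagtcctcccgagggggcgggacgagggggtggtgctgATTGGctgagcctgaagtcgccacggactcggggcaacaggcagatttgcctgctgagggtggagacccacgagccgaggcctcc
PXMP4: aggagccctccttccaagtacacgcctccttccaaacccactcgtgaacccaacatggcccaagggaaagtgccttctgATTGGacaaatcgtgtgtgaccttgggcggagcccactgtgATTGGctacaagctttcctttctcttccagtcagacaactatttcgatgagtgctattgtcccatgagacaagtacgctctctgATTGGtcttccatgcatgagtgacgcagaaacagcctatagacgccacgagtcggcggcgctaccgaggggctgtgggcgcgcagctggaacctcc
PXMP2: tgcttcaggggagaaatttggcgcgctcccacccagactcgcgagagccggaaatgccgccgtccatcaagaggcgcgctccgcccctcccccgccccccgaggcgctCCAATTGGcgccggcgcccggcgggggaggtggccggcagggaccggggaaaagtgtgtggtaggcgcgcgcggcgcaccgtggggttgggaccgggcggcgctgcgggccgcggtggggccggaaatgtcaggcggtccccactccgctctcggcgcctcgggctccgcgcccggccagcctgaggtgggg
AGPS: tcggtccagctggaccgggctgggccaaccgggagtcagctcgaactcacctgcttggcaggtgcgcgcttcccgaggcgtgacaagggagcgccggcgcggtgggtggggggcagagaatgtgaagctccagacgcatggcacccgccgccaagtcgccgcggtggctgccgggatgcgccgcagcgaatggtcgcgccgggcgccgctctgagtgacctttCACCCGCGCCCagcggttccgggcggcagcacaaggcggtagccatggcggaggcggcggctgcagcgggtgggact

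The CAT window held 5 matches to CCAAT, a number reached in 0.359% of all 35116 windows of the table. Windows with at least 3 matches made up 3.26% of the table, and 3 windows of the genes described here were among them, those of CAT, PXMP4 and FAR1. At least 1 CCAAT box stood in 35.3% of the windows of these genes and in 34.6% of all windows. In PXMP2 the forward and the reverse match overlap within the capitals. The core of the antioxidant response element, TGACNNNGC, stood in 14.7% of the windows, against 13.3% of all, and was found in PEX5, PEX10, PEX16, ABCD4 and ACOX3. The E-box CACGTG stood in 4 of the 34 windows (11.8%), against 7.26% of all, and was found in PEX10, PEX11G, GNPAT and PECR. The 34 windows had a median of 65.0% G and C bases, against 58.7% in all windows. The part of this in the shares of motifs was not tested. A direct repeat of the half-site bound by PPAR and RXR receptors, AGGTCANAGGTCA, occurred in 0.0228% of all windows and in 0 of the 34. Both strands were searched for all 4 motifs, and matches of different motifs overlapped in 0 of the 34 windows. These matches describe letters, not binding.

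In untreated cells the 32 transcripts ranged over more than 2 orders of magnitude in FPKM, a level per transcript length that can be compared between genes. ECH1, a dienoyl-CoA isomerase shared with mitochondria, was the most abundant at 25.9 ± 1.46 FPKM (SD, n = 6). It was followed by the import receptor PEX5 at 18.8 ± 0.568 FPKM and the membrane channel PXMP2 at 17.003 ± 1.205 FPKM. The ether lipid enzymes AGPS, GNPAT and FAR1 came next at 16.1 ± 0.532, 14.2 ± 0.778 and 14.1 ± 0.793 FPKM. CAT stood in the place numbered 9, at 8.65 ± 0.700 FPKM, above 63.2% of the genes tested. The lowest levels were those of PEX11G (0.680 ± 0.213 FPKM), PECR (0.592 ± 0.135 FPKM), MLYCD (0.474 ± 0.0414 FPKM) and CRAT (0.0729 ± 0.0285 FPKM). Many neighbours in this order differed by less than the larger of their SDs, among them PXMP2 and AGPS, GNPAT and FAR1, PEX3 and CAT, and PEX13 and PEX2. With exon lengths of GENCODE in place of the authors' lengths, 6 in place of 7 genes exceeded 10 units.

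**Figure D1:**
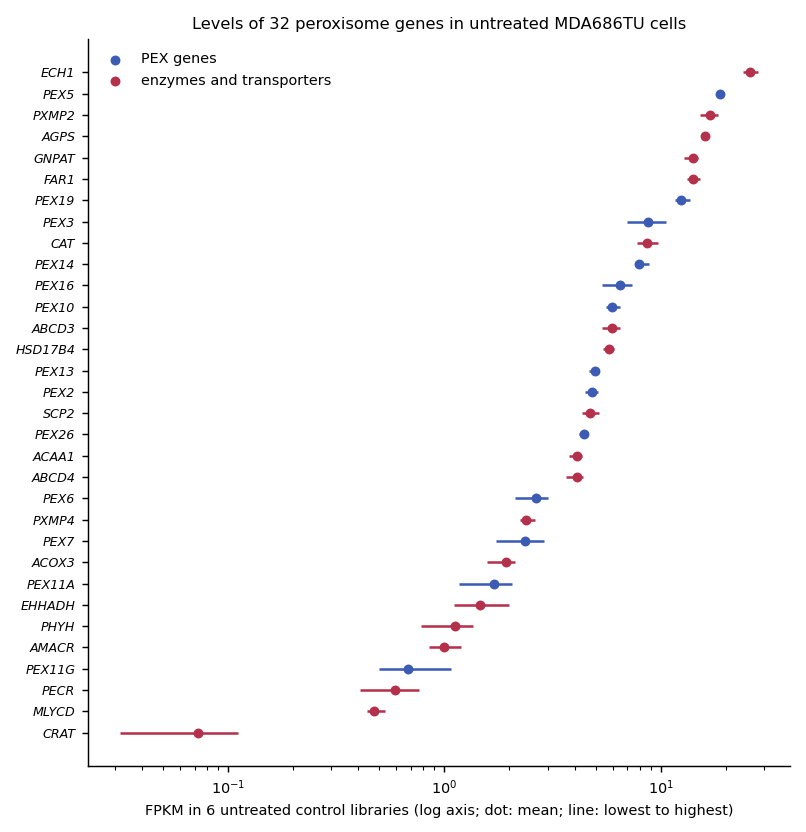
FPKM of the 32 genes in the 6 untreated control libraries, on a log axis, ordered by their mean, with dots for means and lines from the lowest to the highest library. PEX genes (blue) and enzymes and transporters (red) are mixed along the order, from ECH1 at 25.9 FPKM to CRAT at 0.0729 FPKM.

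Resveratrol raised most of these transcripts that it changed. With edgeR's quasi-likelihood test on raw counts (Benjamini-Hochberg adjusted p under 0.1 over all genes tested and p under 0.05), 17 of the 31 genes tested were higher and 2 were lower with resveratrol than in the control. Of all 15476 genes tested, 56.9% passed this test, 28.9% as higher and 28.0% as lower. The share of the 31 genes that passed was thus near that of all genes, while the split by direction was not even. With the combination, 18 genes were higher and 5 were lower than in the control, beside 59.8% of all genes that passed, 29.9% as higher and 29.9% as lower. Both comparisons use the same control libraries. For the 31 genes the median log2 fold change was 0.20 (resveratrol) and 0.18 (combination), where for all genes tested it was 0.0037 and -0.0015. The 6 libraries of resveratrol did not overlap with those of the control for 11 of the 31 genes, against 31.1% of all genes tested, and those of the combination did not overlap for 6, against 31.9%. Scaling by library size alone gave 20 higher and 1 lower with resveratrol, where 68.3% of all calls were higher in place of 50.7%. It gave 20 higher and 2 lower with the combination, where 64.6% of all calls were higher in place of 50%. CRAT, which had 0 to 7 raw counts per library, was not tested.

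The PEX genes and the other genes were then set side by side. Of the 18 enzymes and transporters tested, 12 were higher and 1 was lower with resveratrol, with a median log2 fold change of 0.22. Of the 13 PEX genes, 5 were higher and 1 was lower, with a median of 0.08. With the combination the enzymes and transporters had 12 higher and 3 lower (median 0.21) and the PEX genes 6 higher and 2 lower (median 0.17). Of all genes tested, 28.9% were higher and 28.0% lower with resveratrol, and 29.9% and 29.9% with the combination. The share of PEX genes that passed was below that of all genes with resveratrol (56.9%) and near it with the combination (59.8%). The difference between the PEX genes and the enzymes and transporters was not tested. Library medians had an SD of 0.065 (PEX genes) and 0.034 (enzymes and transporters) on the log2 scale. In replicates 4 to 6 alone the median of the PEX genes with the combination was 0.09, and without replicate 1 of the control it was 0.10.

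**Figure D2:**
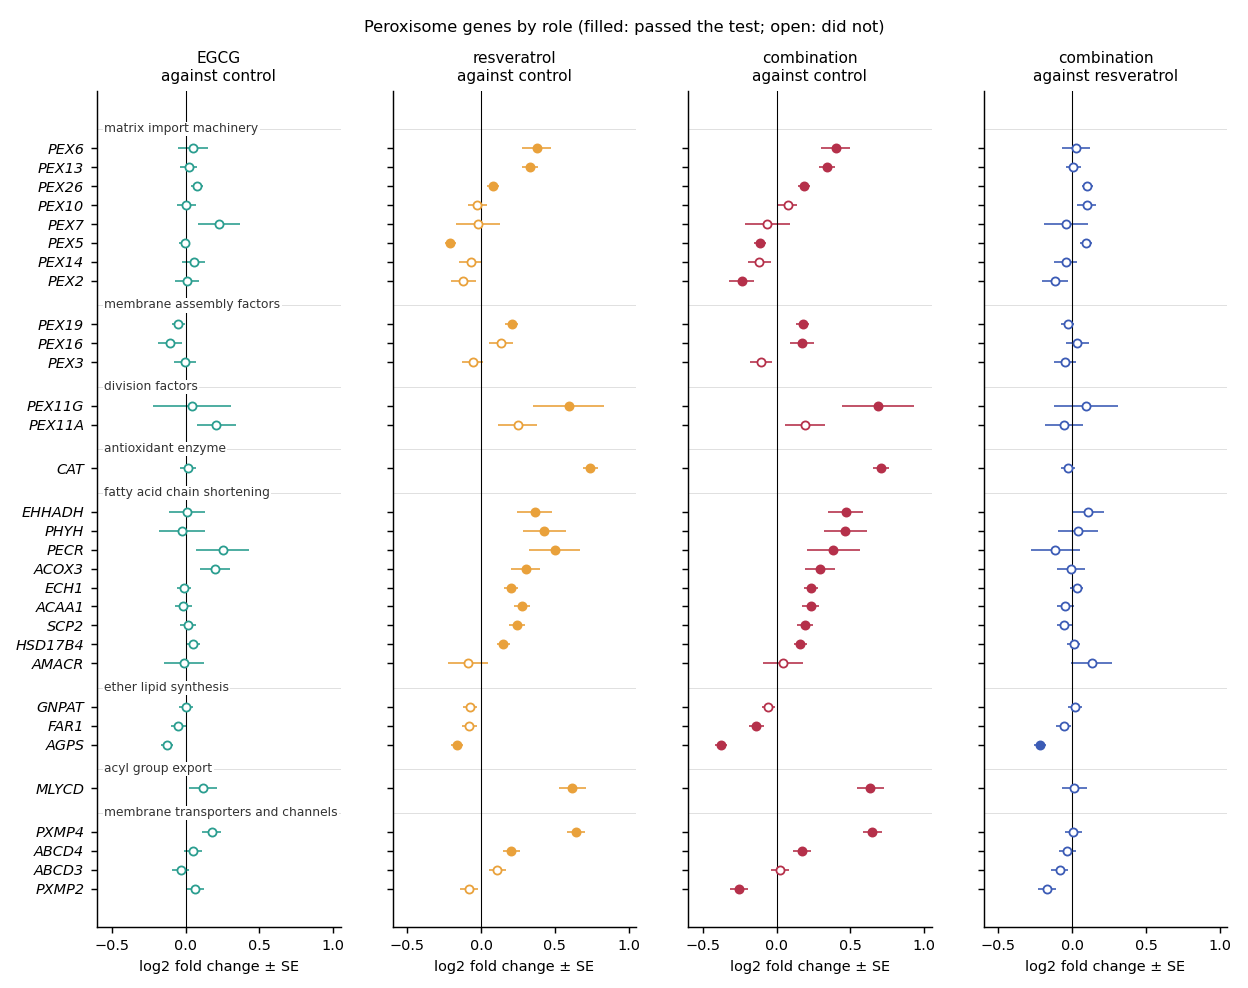
Log2 fold change with its standard error for the 31 genes tested, grouped by role, in 4 comparisons, with filled points for genes that passed the test. No point is filled for EGCG against the control, most filled points lie above 0 for resveratrol and for the combination, and AGPS is the single filled point for the combination against resveratrol.

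Of the 8 genes of the import machinery, 3 were higher and 1 was lower with resveratrol, and 3 were higher and 2 were lower with the combination. These shares lie near those of all genes tested (56.9% and 59.8% called). PEX6, the ATPase that extracts the receptor, had 7.38, 9.56 and 10.5 CPM (counts scaled to the TMM library size, as lowest, median and highest library) in the control and 10.8, 11.8 and 14.6 CPM with resveratrol, so these libraries did not overlap. Its log2 fold change was 0.38 ± 0.10 (SE, adjusted p = 0.0013) with resveratrol and 0.40 ± 0.10 (adjusted p = 7.1e-04) with the combination. PEX13, a docking factor, rose by 0.33 ± 0.05 on the log2 scale with resveratrol and by 0.34 ± 0.06 with the combination, and neither group overlapped with the control. PEX26, the membrane anchor of the ATPase, had smaller changes of 0.08 ± 0.04 (adjusted p = 0.080) and 0.19 ± 0.04 (adjusted p = 1.5e-04). The receptor of most matrix enzymes went the other way. PEX5 had 99.3, 104 and 109 CPM in the control, 86.4, 89.0 and 94.4 CPM with resveratrol and 90.7, 95.2 and 104 CPM with the combination. It fell by 0.21 ± 0.04 on the log2 scale with resveratrol (adjusted p = 2.2e-05), without overlap, and by 0.11 ± 0.04 with the combination (adjusted p = 0.012), where the libraries overlapped.

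PEX2, a ubiquitin ligase of the import channel, passed the test with the combination and not with EGCG or resveratrol. Its lowest, median and highest libraries had 22.4, 24.1 and 25.6 CPM in the control, 18.3, 24.9 and 26.0 CPM with EGCG, 20.03, 21.4 and 25.6 CPM with resveratrol, and 15.3, 20.5 and 24.2 CPM with the combination. All groups overlapped. The log2 fold change with the combination was -0.24 ± 0.09 (adjusted p = 0.018, exact permutation p = 0.022), that with resveratrol was -0.12 ± 0.08 (adjusted p = 0.23), and the difference of these treatments was -0.12 ± 0.09 (adjusted p = 0.52). The lowest value was that of replicate 3 of the combination, and without this library the change was -0.16 (adjusted p = 0.087) and PEX2 no longer passed both limits. Nor did it pass with libraries scaled by size alone (-0.15, adjusted p = 0.14). Within replicates 1 to 3 the combination gave -0.28, and within replicates 4 to 6 alone it gave -0.19 and did not pass (adjusted p = 0.11). PEX7, the receptor for a smaller set of enzymes, PEX14, which docks the receptors, and PEX10, the partner of PEX2, did not pass with resveratrol or the combination, and their log2 fold changes lay between -0.12 and 0.07. The exons of PEX10 share 1479 bases with RER1 on the other strand, and those of PEX14 share 207 bases with DFFA. Since the strand setting of the counting is not given in the sources used here, reads there are of uncertain origin.

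Among the membrane assembly factors, PEX19, the chaperone of membrane proteins, rose with both treatments. Its log2 fold change was 0.21 ± 0.04 (adjusted p = 1.2e-04) with resveratrol, without overlap, and 0.18 ± 0.04 (adjusted p = 8.1e-04) with the combination. PEX16, a membrane receptor, passed the test with the combination (0.17 ± 0.08, adjusted p = 0.073) and had 0.14 ± 0.08 with resveratrol (adjusted p = 0.15). PEX3, the docking site of PEX19, had -0.06 ± 0.07 and -0.11 ± 0.07 and did not pass.

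The division factor PEX11G was among the largest changes, at a low level. It had 6 to 19 raw counts per library. The lowest, median and highest libraries had 0.742, 0.954 and 1.60 CPM in the control, 0.519, 1.13 and 1.49 CPM with EGCG, 1.03, 1.58 and 1.91 CPM with resveratrol, and 1.18, 1.64 and 2.39 CPM with the combination. The groups overlapped, though the medians of the libraries with resveratrol stood above those without it. The log2 fold change was 0.59 ± 0.24 with resveratrol (adjusted p = 0.037, exact permutation p = 0.026) and 0.69 ± 0.24 with the combination (adjusted p = 0.015, exact permutation p = 0.013). With resveratrol it did not pass under the DESeq2 Wald test (adjusted p = 0.11) or when every gene with a count was tested (adjusted p = 0.11). Within replicates 1 to 3 PEX11G had 0.49 with resveratrol and 0.64 with the combination, and within replicates 4 to 6 it had 0.71 and 0.74, of which none passed (edgeR adjusted p between 0.12 and 0.25). Its relative PEX11A had 0.25 ± 0.13 with resveratrol (adjusted p = 0.11) and 0.19 ± 0.13 with the combination (adjusted p = 0.23).

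CAT had the largest change of all 31 genes with resveratrol. The lowest, median and highest libraries had 28.0, 31.4 and 35.1 CPM in the control, 29.7, 31.5 and 33.2 CPM with EGCG, 48.1, 52.1 and 54.3 CPM with resveratrol, and 47.2, 50.7 and 54.8 CPM with the combination. Every library with resveratrol, alone or combined, lay above every library without it. Resveratrol raised CAT 1.67-fold (log2 0.74 ± 0.05, adjusted p = 6.5e-15) and the combination 1.63-fold (log2 0.71 ± 0.05, adjusted p = 2.1e-14). The exact permutation p was 0.00216 for each, the smallest that 6 libraries against 6 can give. Within replicates 1 to 3 resveratrol gave a log2 change of 0.73, and within replicates 4 to 6 one of 0.75. EGCG alone gave 0.02 ± 0.05 (adjusted p = 0.96), and the combination differed from resveratrol by -0.03 ± 0.05 (adjusted p = 0.79).

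**Figure D3:**
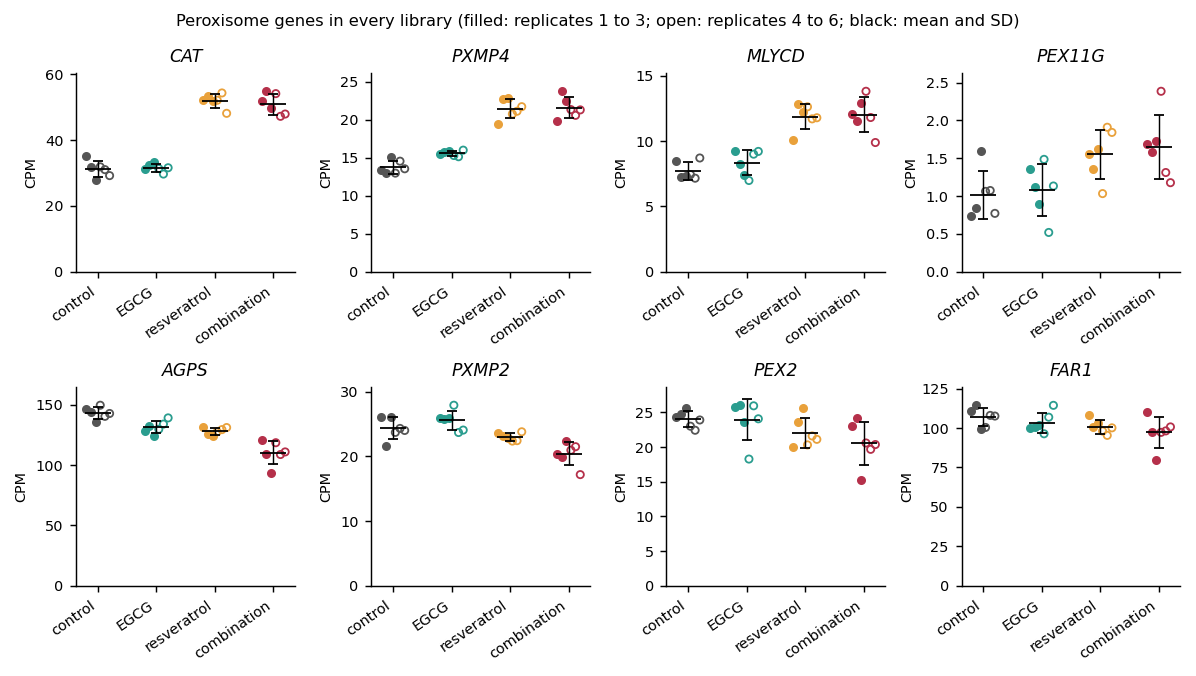
CPM of 8 genes in each of the 24 libraries, with filled points for replicates 1 to 3, open points for replicates 4 to 6, and the mean and SD of 6 libraries in black. CAT, PXMP4 and MLYCD of the upper row separate the libraries with resveratrol from those without it, and AGPS is lowest in the combination, from 93.8 to 120 CPM.

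Most enzymes that shorten fatty acids were higher with resveratrol. Of the 9, 8 were higher with resveratrol (against 28.9% of all genes tested), 8 were higher with the combination (against 29.9%), and 0 were lower. AMACR was the gene that did not pass in either comparison, and both used the same control libraries. Between the combination and EGCG, 6 of the 9 were higher (against 28.7% of all genes tested) and 0 were lower. There PECR (0.13 ± 0.17, edgeR adjusted p = 0.55) and ACOX3 (0.10 ± 0.10, adjusted p = 0.43) did not pass. With EGCG alone they had 0.25 ± 0.18 and 0.20 ± 0.10 and did not pass. The largest log2 change with resveratrol was that of PECR, an enoyl-CoA reductase (0.50 ± 0.17, adjusted p = 0.015), at 12 to 32 raw counts per library. PECR had 0.38 ± 0.18 with the combination (adjusted p = 0.076), and its exons share 137 bases with MREG on the same strand. PHYH, which starts the breakdown of phytanic acid, had 2.66, 3.996 and 4.60 CPM in the control, 4.18, 4.80 and 6.78 CPM with resveratrol, and 4.83, 5.05 and 6.56 CPM with the combination. The combination did not overlap with the control. The log2 change of PHYH was 0.43 ± 0.14 with resveratrol (adjusted p = 0.012) and 0.47 ± 0.15 with the combination (adjusted p = 0.0069). Within replicates 1 to 3 resveratrol gave 0.70, and within replicates 4 to 6 it gave 0.13. EHHADH, a bifunctional enzyme of the straight-chain pathway, had 0.36 ± 0.12 (adjusted p = 0.0088) and 0.47 ± 0.12 (adjusted p = 8.6e-04).

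The remaining enzymes of chain shortening moved less. The branched-chain oxidase ACOX3 rose by 0.30 ± 0.10 on the log2 scale with either treatment. Values that follow are log2 changes with resveratrol and then with the combination. The thiolase ACAA1 had 0.28 ± 0.06 and 0.23 ± 0.06, and the thiolase and sterol carrier SCP2 had 0.24 ± 0.05 and 0.19 ± 0.05. ECH1 had 0.20 ± 0.05 and 0.23 ± 0.05, and HSD17B4, the bifunctional enzyme of branched chains, had 0.15 ± 0.04 and 0.16 ± 0.04. All of these passed the test, with adjusted p between 7.6e-05 and 0.013. AMACR, a racemase of branched acids, was the exception with -0.09 ± 0.14 and 0.04 ± 0.14. ACAA1 and PHYH, which PEX7 carries in, were higher with both treatments, and AGPS, also carried by PEX7, was lower.

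The ether lipid genes lay on the other side of 0. Of the 3, 0 were higher and 1 was lower with resveratrol, against 28.0% of all genes tested that were lower. With the combination 0 were higher and 2 were lower, against 29.9%. Between the combination and EGCG 1 was lower, against 29.1%. With so few genes these counts do not set the group apart from all genes. AGPS, the alkylglycerone phosphate synthase that makes the ether bond, had 136, 143 and 150 CPM in the control (lowest, median and highest library), 124, 131 and 139 CPM with EGCG, 124, 129 and 131 CPM with resveratrol, and 93.8, 110 and 120 CPM with the combination. Every library of the combination lay below every library of the other groups. With the combination AGPS fell to 0.77 of the control (log2 -0.38 ± 0.04, adjusted p = 8.3e-10), and with resveratrol to 0.89 (log2 -0.16 ± 0.04, adjusted p = 0.0011), both with exact permutation p = 0.00216. The change with resveratrol did not pass when libraries were scaled by size alone (-0.07, adjusted p = 0.13). Within replicates 1 to 3 the combination gave -0.40 and within replicates 4 to 6 it gave -0.35. FAR1, which makes the fatty alcohol for the ether bond, had 99.7, 108 and 115 CPM in the control, 96.4, 101 and 114 CPM with EGCG, 95.4, 100 and 108 CPM with resveratrol, and 80.0, 97.8 and 110 CPM with the combination, with overlap of all groups. Its log2 change with the combination was -0.14 ± 0.05 (adjusted p = 0.020, exact permutation p = 0.048) and without replicate 3 of the combination, its lowest library, it was -0.09 (adjusted p = 0.093) and no longer passed both limits. Scaling by library size alone gave -0.06 (adjusted p = 0.37). Within replicates 1 to 3 the combination gave -0.19 for FAR1, and within replicates 4 to 6 alone it gave -0.09 and did not pass (adjusted p = 0.16). GNPAT, the acyltransferase ahead of AGPS, had -0.07 ± 0.05 and -0.06 ± 0.05 and did not pass.

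MLYCD encodes malonyl-CoA decarboxylase, which removes an inhibitor of fatty acid entry into mitochondria. The lowest, median and highest libraries had 7.16, 7.39 and 8.70 CPM in the control, 6.98, 8.61 and 9.22 CPM with EGCG, 10.1, 12.01 and 12.8 CPM with resveratrol, and 9.89, 11.9 and 13.8 CPM with the combination. All libraries with resveratrol lay above all those without it. The log2 change was 0.62 ± 0.09 with resveratrol (adjusted p = 3.9e-07) and 0.63 ± 0.09 with the combination (adjusted p = 2.7e-07), each with exact permutation p = 0.00216. The log2 change of MLYCD with resveratrol was 0.61 within replicates 1 to 3 and 0.63 within replicates 4 to 6. The exons of MLYCD share 457 bases with OSGIN1 on the same strand, and OSGIN1 had a mean of 320 raw counts against 87.9 for MLYCD. OSGIN1 rose by 1.41 ± 0.06 with resveratrol and by 1.51 ± 0.06 with the combination on the log2 scale. The share of MLYCD counts that came from OSGIN1 transcripts was not tested.

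The membrane proteins moved in opposite directions. PXMP4, a small membrane protein, had 12.98, 13.5 and 15.1 CPM in the control, 15.1, 15.6 and 16.01 CPM with EGCG, 19.5, 21.4 and 22.9 CPM with resveratrol, and 19.9, 21.3 and 23.8 CPM with the combination. All libraries with resveratrol lay above all those without it. Its log2 change was 0.64 ± 0.06 with resveratrol (adjusted p = 5.8e-11) and 0.65 ± 0.06 with the combination (adjusted p = 4.8e-11), with exact permutation p = 0.00216. Resveratrol gave PXMP4 0.65 within replicates 1 to 3 and 0.63 within replicates 4 to 6. PXMP2, a pore for small solutes, had 21.6, 24.2 and 26.2 CPM in the control, 23.7, 25.8 and 27.9 CPM with EGCG, 22.4, 23.0 and 23.8 CPM with resveratrol, and 17.2, 20.7 and 22.4 CPM with the combination. The libraries of the combination lay below all those of EGCG and overlapped with those of the control. PXMP2 fell by 0.26 ± 0.06 on the log2 scale with the combination (adjusted p = 6.3e-04, exact permutation p = 0.0043), and had -0.08 ± 0.06 with resveratrol (adjusted p = 0.25). The change with the combination was -0.24 within replicates 1 to 3 and -0.28 within replicates 4 to 6. The combination differed from resveratrol by -0.17 ± 0.06, which did not pass the adjusted limit (edgeR adjusted p = 0.11, exact permutation p = 0.0043), and it passed without replicate 3 of the combination (-0.21, adjusted p = 0.060). It also passed with library size alone (adjusted p = 0.087), with at least 10 counts in every library (adjusted p = 0.090) and with the replicate number as a block (adjusted p = 0.095). Of the transporters, ABCD4, which acts on vitamin B12 in lysosomes, rose by 0.20 ± 0.06 and 0.17 ± 0.06, and ABCD3, which imports acyl-CoA, had 0.11 ± 0.06 and 0.02 ± 0.06 and did not pass.

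EGCG alone changed none of the 31 genes by the edgeR test, and 2 had an unadjusted p under 0.05. The DESeq2 Wald test also called 0. Of all genes tested, 1.76% passed with EGCG. The 2 genes were AGPS, with a log2 change of -0.13 ± 0.04 (edgeR adjusted p = 0.16, exact permutation p = 0.0043), and PXMP4, with 0.18 ± 0.07 (edgeR adjusted p = 0.31, exact permutation p = 0.00216). The libraries of PXMP4 with EGCG all lay above those of the control, the single gene of the 31 without overlap, against 1.63% of all genes tested. AGPS passed the edgeR test when the fit held only the control and EGCG libraries (adjusted p = 0.076) and with the replicate number as a block (adjusted p = 0.041). It also passed with the set of replicates as a factor (adjusted p = 0.093) and without replicate 3 of the combination (adjusted p = 0.033).

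Adding EGCG to resveratrol changed AGPS alone among the 31 genes. It was 0.86 of the level with resveratrol (log2 -0.22 ± 0.04, edgeR adjusted p = 7.8e-04, exact permutation p = 0.00216), with -0.24 in replicates 1 to 3 and -0.20 in replicates 4 to 6. Of all genes tested, 7.86% passed between the combination and resveratrol, 3.86% as lower. The others with an unadjusted p under 0.05 were PXMP2, PEX5 and PEX26, the last 2 with log2 changes of 0.09 ± 0.04 (adjusted p = 0.18) and 0.10 ± 0.04 (adjusted p = 0.14). The interaction, which asks how far the log2 change with both agents departs from the added changes of each one, was called for 0 of the 31 genes by edgeR and by DESeq2, beside 0.265% of all genes tested in edgeR. It had an unadjusted p under 0.05 for PXMP2 alone (-0.24 ± 0.09, edgeR adjusted p = 0.43). For AGPS it was -0.09 ± 0.06 (edgeR adjusted p = 0.76), with 95% limits of -0.21 and 0.02. For CAT it was -0.05 ± 0.07, with limits of -0.19 and 0.09.

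The effect of resveratrol was also measured in cells that received EGCG, in libraries that the comparison with the control does not use. Between the combination and EGCG, 16 of the 31 genes were higher and 5 were lower, beside 57.8% of all genes that passed, 28.7% as higher and 29.1% as lower. The 13 PEX genes had 6 higher and 3 lower, and the 18 enzymes and transporters had 10 higher and 2 lower. The direction was that of resveratrol against the control for 28 of 31 genes (90.3%), against 85.7% of all genes tested. Of the 19 genes called with resveratrol, 17 (89.5%) were called in the same direction between the combination and EGCG, against 82.0% of all genes called. CAT, PXMP4 and MLYCD had log2 changes of 0.69 ± 0.05, 0.47 ± 0.06 and 0.52 ± 0.09 there, and PXMP2 had -0.32 ± 0.06 (adjusted p = 4.2e-05), where resveratrol against the control gave -0.08 ± 0.06 (adjusted p = 0.25). The difference of these is the interaction given above. PEX14 was called lower there (-0.17 ± 0.08, adjusted p = 0.067). All comparisons shared the estimate of dispersion over the 24 libraries.

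Other genes of the organelle were examined as lists beside the 32, and their counts stand beside shares of all genes tested of 28.9% higher and 28.0% lower (resveratrol) or 29.9% and 29.9% (combination). Of 9 tested of 10 further assembly genes, 4 were higher and 1 was lower with resveratrol, and 2 were higher and 2 were lower with the combination. DNM1L, the dynamin-like GTPase of organelle fission, fell by 0.19 ± 0.04 with resveratrol and by 0.32 ± 0.04 with the combination on the log2 scale. Of 30 tested of 40 further enzymes and transporters, 20 were higher and 1 was lower with resveratrol (median log2 fold change 0.25), and 16 were higher and 3 were lower with the combination (median 0.19). The largest rises with resveratrol were those of SLC27A2, a very long chain acyl-CoA synthetase (1.25 ± 0.20 with resveratrol and 1.13 ± 0.20 with the combination), and NUDT7, a coenzyme A hydrolase (1.11 ± 0.24 and 0.88 ± 0.26). XDH, xanthine dehydrogenase, fell by 0.66 ± 0.07 and 0.47 ± 0.07.

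The same shares of all genes stand beside the lists that follow. Mitochondria run a separate β-oxidation of shorter fatty acids, and 12 of its 16 genes tested were higher and 2 were lower with resveratrol (median 0.18). With the combination, 9 were higher and 1 was lower. Among PPAR and RXR receptors and their cofactors, 5 of 9 were higher and 3 were lower with resveratrol, and 3 were higher and 3 were lower with the combination. PPARA, the receptor named for peroxisome proliferators, rose by 0.55 ± 0.07 and 0.51 ± 0.07, and PPARD by 0.35 ± 0.04 and 0.60 ± 0.04. Of their partners, RXRA fell by 0.14 ± 0.04 and 0.28 ± 0.04, and RXRB rose by 0.12 ± 0.05 and 0.19 ± 0.05. The coactivator PPARGC1B fell by 0.23 ± 0.08 and 0.43 ± 0.08. All 4 tested of 10 receptor targets outside the peroxisome were higher with both treatments, with ANGPTL4, an inhibitor of lipoprotein lipase, at 0.98 ± 0.19 and 1.29 ± 0.19. Among the 4, CPT1A (0.13 ± 0.03 and 0.06 ± 0.03) and ACADVL (0.48 ± 0.04 and 0.51 ± 0.04) also stand in the mitochondrial list above. These lists are thus not separate observations.

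Of the 10 tested genes of other enzymes that handle hydrogen peroxide and superoxide, 3 were higher and 3 were lower with resveratrol, and 1 was higher and 5 were lower with the combination. The share called is near that of all genes (56.9% and 59.8%). GPX1, a glutathione peroxidase that contains selenium, fell by 0.59 ± 0.05 with EGCG and by 0.66 ± 0.05 with the combination, and had -0.04 ± 0.04 with resveratrol. GPX4 fell by 0.22 ± 0.05 with EGCG, rose by 0.29 ± 0.04 with resveratrol and had 0.01 ± 0.05 with the combination. Of the 4 genes of pexophagy, the removal of peroxisomes by autophagy, 3 were higher with resveratrol and 4 with the combination. Of all genes tested, 28.9% and 29.9% were higher. The receptors SQSTM1 and NBR1 rose by 0.97 ± 0.03 and 0.53 ± 0.03 with resveratrol and by 1.08 ± 0.03 and 0.59 ± 0.03 with the combination.

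**Figure D4:**
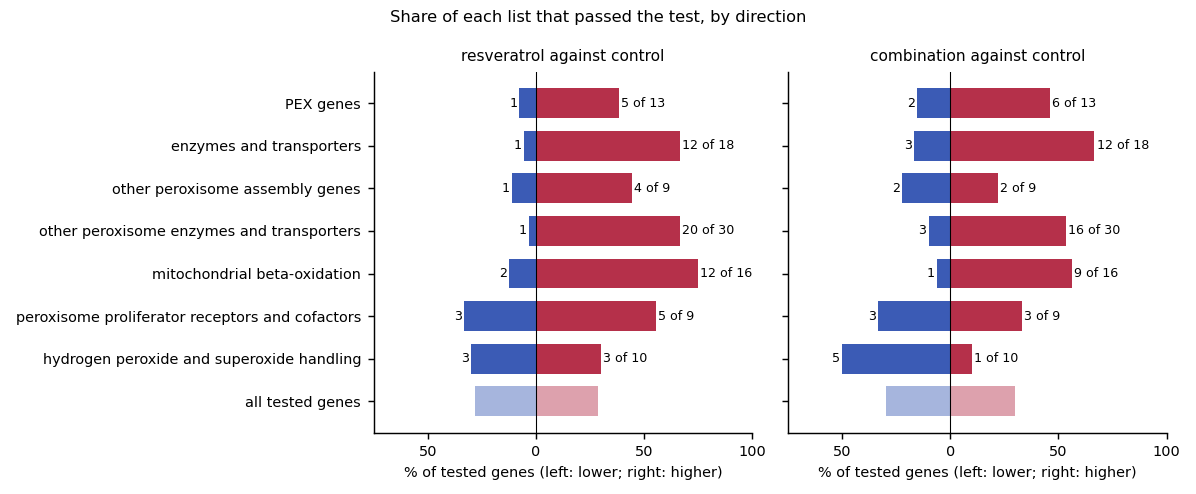
Share of the tested genes of 7 lists that were higher (red, to the right) or lower (blue, to the left) than the control with resveratrol and with the combination, with counts beside the bars and all 15476 tested genes at the bottom. Enzymes and transporters reach 12 of 18 higher in both panels, beside 28.9% and 29.9% of all genes.

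AGPS and PXMP2, which fell with the combination, each share a promoter region with a gene on the other strand. AGPS starts 10 bases from NFE2L2, which encodes the transcription factor NRF2 and is read from the other strand, and both hold the capitals printed in the AGPS window. NFE2L2 had log2 changes of 0.00 ± 0.03 with resveratrol and 0.01 ± 0.03 with the combination and did not pass. PXMP2 starts 211 bases from POLE, the catalytic subunit of a replicative DNA polymerase, which had 0.01 ± 0.05 and 0.09 ± 0.05 and did not pass. Among the genes that rose, SCP2 starts 64 bases from ECHDC2, an enoyl-CoA hydratase-like gene, which rose by 1.303 ± 0.27 and 1.45 ± 0.27. EHHADH, which also rose, starts 951 bases from MAP3K13, which had 0.12 ± 0.06 (passed) and 0.04 ± 0.06 (did not pass). PEX3 and GNPAT did not pass, while their neighbours ADAT2 and C1orf131 fell with the combination (-0.39 ± 0.13 and -0.27 ± 0.07). Neither PEX14 nor its neighbour DFFA passed with resveratrol or the combination. These neighbours were examined after the values were seen.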

How the data were processed

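Total RNA of 24 samples (RNeasy) was made into TruSeq stranded mRNA libraries and sequenced as paired reads. Per the authors' methods and processing notes, reads were trimmed with Trimmomatic 0.36, checked with FastQC 0.11.5, aligned to GRCh38 with HISAT2 2.0.4 and sorted with SAMtools 1.3.1. The counting program, annotation release and strand setting are not given in the sources used here. The authors deposited raw counts per gene, without normalization or pooling, and FPKM values per gene, used here only for levels between genes. A deposited table of normalized counts was not used.

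Raw counts of all 24 libraries (7034872 to 11735574 per library) were fitted in edgeR 4.0.16 (R 4.3.3) with TMM, filterByExpr and the quasi-likelihood test, which kept 15476 genes. The coefficient of variation between libraries of a group beyond counting error, which edgeR calls biological, was 5.32% as the common estimate. A gene passed at an adjusted p (Benjamini-Hochberg) below 0.1 together with an unadjusted p below 0.05. For members described in full, a two-sided exact permutation test of mean log2 CPM (prior count 2) was added, 8 tests per comparison and unadjusted, where the smallest p possible is 0.00216. DESeq2 1.42.0 served as an alternative. Both tools were tested on simulated data. Counting error is largest for genes with few counts.

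The genes and lists were chosen with earlier results of these data known. Members described in full were CAT, the 4 largest rises and the 4 largest falls with the combination among genes called with resveratrol or the combination, and any called in another comparison except the combination against EGCG. From other lists, up to 3 of the largest rises and 3 of the largest falls could be named, and some results under this rule are not reported here. Alternatives were DESeq2, other scalings and filters, an adjusted p under 0.05, only the groups compared, a replicate block, leaving out single libraries, and each set of replicates alone or as a factor.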

Additional observations from a re-analysis of the deposited data

Results flagged for a closer look

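PEX2 had 1 library far from the other 5 with EGCG. Replicate 4 of EGCG had 18.3 CPM, where the median of the group was 24.9 CPM, and its gap to the nearest library took 68.0% of the range of the group. This library had the lowest total of all, 7034872 counts. It was the single such value in 32 tests of 8 genes in 4 groups, and chance gives about 1 in 20.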

How the results depend on the processing

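Of 1113 alternative values for the 8 genes described in full, 1090 kept their side of the limits, 13 no longer passed, 10 passed anew, and 0 values that passed changed sign. Among values that did not pass, some near 0 changed sign, such as CAT with EGCG (-0.01 to 0.05 with 1 library left out). No gene was called with EGCG, against 1 (AGPS) with only the groups compared, with the replicate block and with the set of replicates as a factor, and between 0 and 1 with 1 library left out. Between the combination and resveratrol 1 gene was called, against 2 with library size alone, with at least 10 counts in every library and with the replicate block, and 1 to 2 with 1 library left out (2 without replicate 2 of the control, 4 of EGCG, 5 of resveratrol, or 3 or 5 of the combination). The added gene was PXMP2, save without replicate 5 of resveratrol or of the combination. With library size alone the median log2 fold change of the PEX genes was 0.17 with resveratrol, 0.25 with the combination and 0.14 between the combination and EGCG, and that of the enzymes and transporters 0.31, 0.29 and 0.20. Replicates 4 to 6 alone gave 0.18 for the enzymes and transporters with resveratrol and 0.086 for the PEX genes with the combination, and replicates 1 to 3 alone gave 0.18 for the enzymes and transporters between the combination and EGCG. Leaving out 1 library gave 0.10 to 0.19 for the PEX genes with the combination and 0.12 to 0.18 for the enzymes and transporters between the combination and EGCG, the highest without replicate 2 or 6 of EGCG. The cause of these shifts was not tested. PEX11G passed with neither set of replicates alone. Pairs of libraries with the same replicate number had deviations correlated between -0.0111 and 0.131, over 0.1 in 2 of 36 pairs. Of 24 libraries, 11 were closest to their own number, out of 6 numbers. Between groups, deviations had a mean correlation of 0.0386 within a set of replicates and -0.0385 across the sets. Of all genes, 370 in place of 273 were called with EGCG under the replicate block. Between the combination and resveratrol it gave 1520 in place of 1217. The main test used no pairing, and what libraries of the same number share was not tested. Grouping by targeting signals in the proteins, and its alternative, was not run. PEX11G (6 to 19 counts) and PECR (12 to 32) are limited by depth, and CRAT could not be tested.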
